A study of Sus scrofa with 2 samples.

Results

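The myogenic regulators are the transcription factors that turn precursor cells into muscle cells and keep the muscle programme running. MYOD1 and MYF5 commit a cell to the muscle lineage, and MYOG and MYF6 act in its differentiation and in the mature fibre. All 4 belong to the basic helix-loop-helix (bHLH) family and bind E-box sites in muscle genes, often together with the MEF2 factors. PAX7 marks the satellite cells, the stem cells of muscle, and MSTN encodes myostatin, a secreted factor that limits muscle growth.

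Unigenes (assembled transcripts) were taken as members when their match in the nr protein database was a pig RefSeq protein of MYOD1, MYOG, MYF5, MYF6, MSTN, PAX7, or MEF2A to MEF2D. Of these 10 genes, 3 had a unigene, 1 each for MYOD1, MYF5 and MYF6, out of 65535 unigenes in the table. MYOG, MSTN, PAX7, MEF2A, MEF2B, MEF2C and MEF2D had no unigene under such an accession. The table does not list the whole assembly, and 15671 of the 21369 unigenes with an nr match carried an accession outside the pig RefSeq list used here. The lack of a unigene for these 7 genes therefore says nothing about their expression, and no level can be given for them, myostatin included.

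The RNA came from the longissimus dorsi muscle (LM) of 25-day-old male pigs, 3 full sibs of the indigenous Chinese Shaziling breed and 3 full sibs of the lean, fast-growing Yorkshire breed. The pigs carried no treatment or engineered allele, and each breed came from a single group of full sibs, so breed and family cannot be told apart. The 3 pigs of a breed share 1 column of reads and 1 of RPKM (reads relative to unigene length and library size). Whether the column joins RNA pooled from the 3 pigs or the reads of separate preparations is not given in the sources used here. A breed is therefore treated as 1 library with no replicate error, and every difference given here was found between 1 Shaziling and 1 Yorkshire library. The sample titles and the column names agree on the breed, whereas the breed class in another label field is exchanged between the samples; the titles were followed.

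The RPKM values are relative to library totals of 33949238 reads (Yorkshire) and 28305925 reads (Shaziling), as worked back from reads, lengths and RPKM, and the reads listed in the table sum to 29537057 and 20575805. A pair of mitochondrial unigenes took 46.4% of the Yorkshire and 11.8% of the Shaziling total, and all other RPKM values are relative to the same totals. For the 2363 unigenes that reached 10 RPKM in each library, the log2 ratio of Shaziling over Yorkshire had a median of 0.35. Of 12 markers of skeletal muscle, 5 had a unigene, and these lay between 325 and 829 RPKM in Yorkshire and between 1020 and 2075 in Shaziling; ACTA1, CKM and TTN were not among them.

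MYF6 was the most abundant of the 3 factors, MYOD1 was intermediate and MYF5 was low, in both libraries. MYF6, the regulator that stays most active in adult fibres, was represented by contig_9204, with a length of 1292 bp. It received 642 reads in Yorkshire and 1371 in Shaziling, which gave an RPKM of 14.6 and 37.5. These values placed MYF6 above 91.1% of the unigenes with a pig gene symbol in Yorkshire and above 95.1% in Shaziling.

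MYOD1, the factor that commits cells to the muscle lineage, was represented by contig_4436, with a length of 7278 bp. Its reads numbered 1332 in Yorkshire and 2482 in Shaziling, and its RPKM was 5.39 and 12.0. The Shaziling level was above 84.4% of the unigenes with a symbol, the Yorkshire level above 77.4%. MYOD1 received more reads than MYF6 in each library, and its lower RPKM comes from its long unigene. The matched protein has 319 residues, so the unigene was 7.61 times as long as the 957 bp that encode it, and 99.3% of the unigenes with an nr match had a lower value of this quotient. For MYF6 the unigene was 1.78 times the coding length and for MYF5 1.53 times. Where the reads lie along a unigene is not given in the table, so the level of MYOD1 relative to the other factors depends on this length. The length itself cancels in the ratio between the libraries. How many of the reads in either library fall on the coding part is not known, and this limits each ratio that involves MYOD1.

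MYF5, which acts beside MYOD1 in lineage commitment and is expressed by satellite cells, was represented by contig_27228 (1168 bp). Only 24 reads fell on it in Yorkshire (0.605 RPKM) and 73 in Shaziling (2.21 RPKM). MYF5 and MYF6 lie next to each other in the pig genome, yet the RPKM of MYF6 was 24.2 times that of MYF5 in Yorkshire (95% confidence interval 16.1 to 38.0) and 17.0 times in Shaziling (13.4 to 21.8). MYF6 exceeded MYOD1 by 2.72 times in Yorkshire (2.47 to 2.99) and by 3.11 times in Shaziling (2.91 to 3.33). All intervals are exact intervals on the reads unless named otherwise and cover counting error only; the spread between pigs is unknown.

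**Figure D1:**
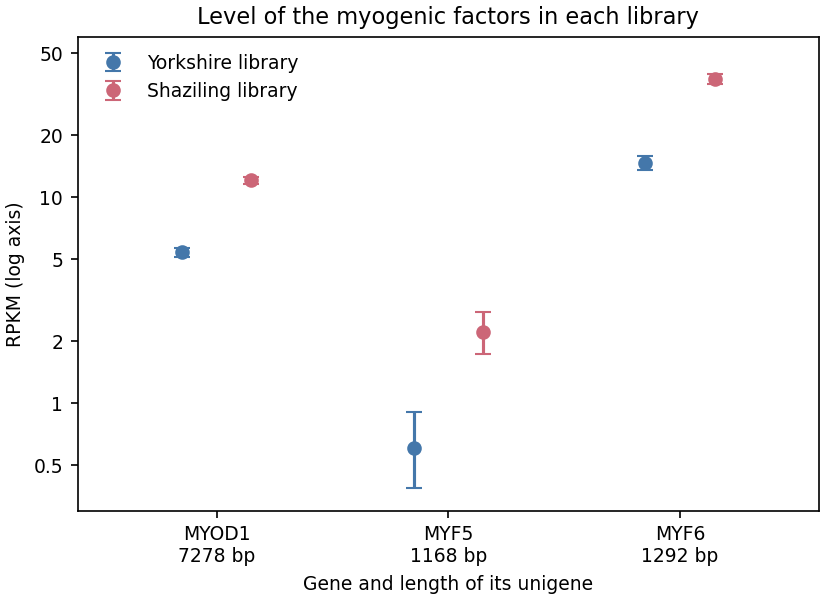
RPKM (log axis) of MYOD1, MYF5 and MYF6 in the Yorkshire and the Shaziling library, 1 library per breed; bars are exact Poisson 95% intervals on the reads. Each factor is higher in the Shaziling library, MYF6 is highest (14.6 and 37.5) and MYF5 lowest (0.605 and 2.21), with the widest interval.

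With the RPKM values as deposited, all 3 factors were higher in the Shaziling library. The ratio of Shaziling to Yorkshire was 2.23 for MYOD1 (95% confidence interval 2.09 to 2.39), 2.56 for MYF6 (2.33 to 2.82) and 3.65 for MYF5 (2.27 to 6.05). On the log2 scale these ratios were 1.16, 1.36 and 1.87, with a median of 1.36. All 3 passed a fold change of 2 with a false discovery rate of 0.05 from an exact binomial test on the reads, which compares the libraries and not the breeds. The same criteria were passed by 24.1% of all unigenes in this direction, and by 7.08% in the other. The share called higher in Shaziling was 36.3% for unigenes with a pig gene symbol and 33.9% for those that reached 1 RPKM in a library. A fold change of 3 was passed by MYF5 alone, and by 19.0% of all unigenes. A fold change of 1.5 (27.6% of all unigenes), a false discovery rate of 0.01 (17.5%), and a fold change of 2 without a test among unigenes that reached 1 RPKM (39.6%) were each passed by all 3 factors.

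The ratios of the 3 factors lay within the bulk of the table. Of the 37352 unigenes that reached 1 RPKM in a library, 64.0% had a lower ratio than MYOD1, 68.2% a lower ratio than MYF6 and 77.5% a lower ratio than MYF5. The median log2 ratio was 0.55 over the 34781 of these unigenes that had reads in both libraries. In bulk muscle, fewer cells of a type and less RNA per cell cannot be told apart.

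**Figure D2:**
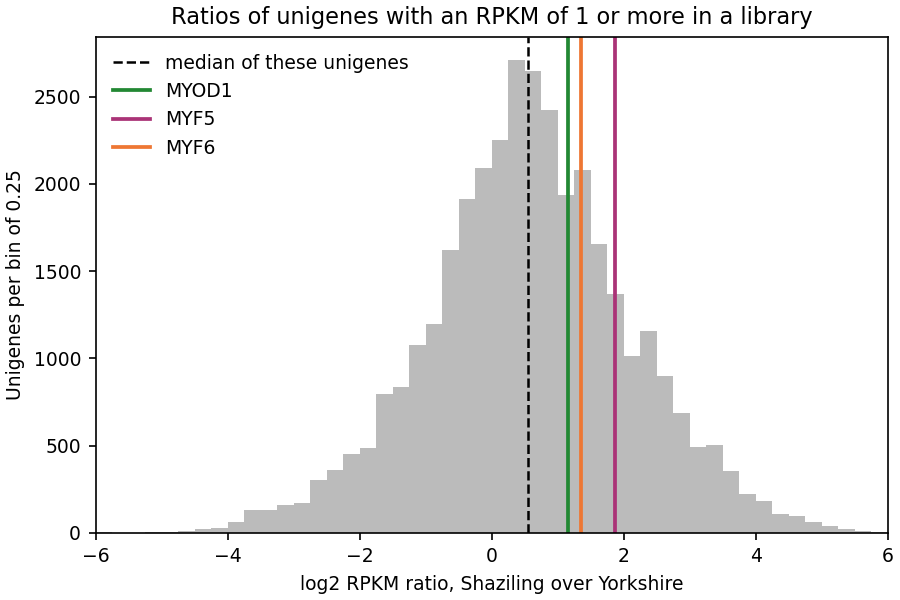
Histogram of the log2 RPKM ratio of Shaziling to Yorkshire (x axis) over the 34781 unigenes with reads in both libraries that reached 1 RPKM in a library, counted in bins of 0.25 (y axis). The lines of MYOD1 (1.16), MYF6 (1.36) and MYF5 (1.87) lie to the right of the dashed median (0.55), inside the bulk of the distribution.

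How far the factors differed depended on how the libraries were scaled. With the 4 other scalings set out in the processing section, the log2 ratio ranged from 0.44 to 0.81 for MYOD1, from 0.64 to 1.004 for MYF6 and from 1.15 to 1.51 for MYF5. All stayed above 0, but the fold change of 2 was kept in each of these scalings by MYF5 alone. MYOD1 lost its call in each of them, and MYF6 kept it only when the median log2 ratio of abundant unigenes was set to 0. The share of all unigenes called higher in Shaziling was 14.8% with the same RPKM sum and with TMM, 16.1% with that median at 0 and 10.9% with totals that leave out the mitochondrial unigenes. When the 5 muscle markers were instead set to a median log2 ratio of 0, a scaling added after the data were seen, MYOD1 reversed to -0.16, MYF6 was at 0.033 and MYF5 at 0.54. The middle marker, ATP2A1, alone sets the size of this scaling. Under it, 0 of the 3 factors and 5.26% of all unigenes were called higher in Shaziling.

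**Figure D3:**
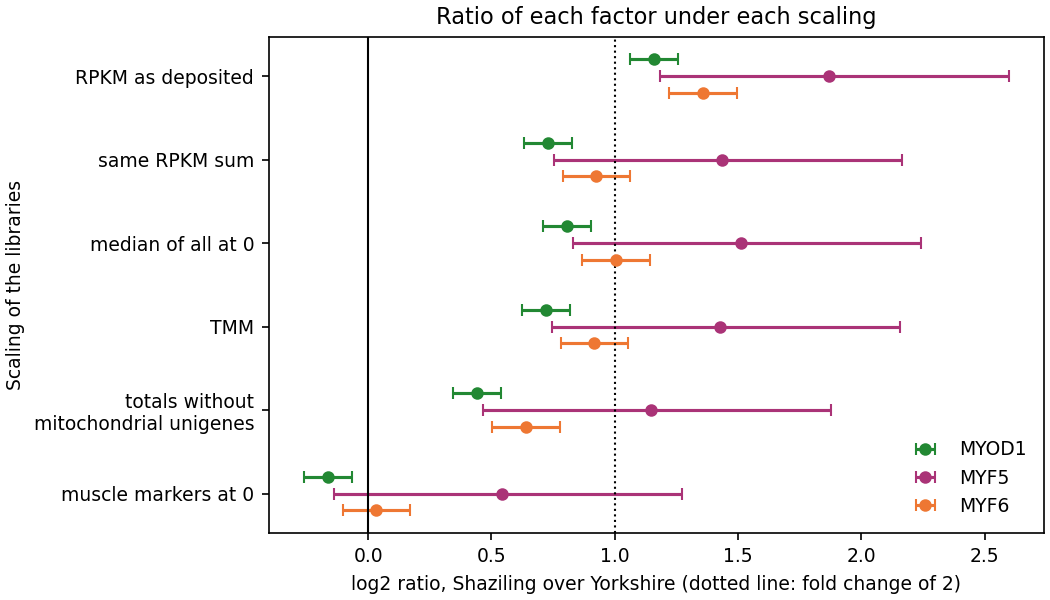
log2 ratio of Shaziling to Yorkshire (x axis) of MYOD1, MYF5 and MYF6 under each scaling of the libraries (y axis); bars are exact 95% intervals on the reads and the dotted line is a fold change of 2. The points shift together to the left from the deposited values, and with the muscle markers at 0 MYOD1 lies at -0.16 and MYF6 at 0.033.

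The proportion of one factor to another within a library does not depend on the scaling. In proportion to MYOD1, MYF6 reads were 1.15 times as frequent in Shaziling as in Yorkshire (95% confidence interval 1.02 to 1.29) and MYF5 reads 1.63 times (1.01 to 2.72), so both intervals lay just above 1. MYF5 relative to MYF6 gave 1.42 (0.878 to 2.39), which does not differ from 1 beyond counting error at 97 MYF5 reads over both libraries. Of the summed RPKM of the 3 factors, MYF6 made up 70.9% in Yorkshire and 72.4% in Shaziling, MYOD1 26.1% and 23.3%, and MYF5 2.93% and 4.27%.

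The factors were also set against the muscle markers of the same libraries, a comparison chosen after their values were seen (intervals from the normal form of the log odds). Relative to desmin (DES, the intermediate filament of the fibre), MYF6 gave 1.03 (0.935 to 1.13) between Shaziling and Yorkshire, MYOD1 0.896 (0.838 to 0.959) and MYF5 1.46 (0.923 to 2.32). Against ATP2A1, the calcium pump of fast fibres, the values were 1.02 for MYF6, 0.893 for MYOD1 and 1.46 for MYF5. ATP2A1 is the middle one of the 5 markers, so these values restate the scaling to the muscle markers and add no separate comparison. All 3 factors were higher in proportion to ACTN2, a Z-disc actinin, by 1.33 times for MYOD1, 1.52 times for MYF6 and 2.16 times for MYF5. MYOD1 and MYF6 were lower in proportion to the fast light chain MYLPF (0.389 and 0.446) and to the Z-disc protein MYOZ1 (0.511 and 0.585), and for MYF5 both intervals included 1. The direction of MYOD1 and MYF6 relative to the muscle markers thus changed with the marker chosen.

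Genes of the same network were taken from fixed lists and read through their most abundant unigene under a pig RefSeq accession. Unigenes of the same genes under other accessions were not counted, so a unigene used here need not be the main transcript of its gene. With the deposited values, their counts stand against the 36.3% of unigenes with a symbol, and 24.1% of all unigenes, called higher in Shaziling. Their medians stand against a median log2 ratio of 0.70 over the unigenes with a symbol and reads in both libraries. Counts with the other scalings are those of the 4 in the processing section unless the muscle markers are named. They stand against 10.9% to 16.1% of all unigenes called higher in Shaziling, and 5.26% with the muscle markers at 0. For these scalings, the share of unigenes with a symbol and the share higher in Yorkshire were not computed. Counts higher in Yorkshire therefore have no background share under them. Of 35 targets of the myogenic and MEF2 factors, 11 had a unigene and 6 of these were called higher in Shaziling, 0 higher in Yorkshire and 5 not called, with a median log2 ratio of 1.31. The other scalings called 3 or 4 higher in Shaziling, and the muscle markers at 0 called 2 higher in Shaziling and 1 higher in Yorkshire. DES and MYLPF of this list are also muscle markers. MYMK, the membrane protein myomaker that drives myoblast fusion, had 62 reads (1.496 RPKM) in Yorkshire and 173 (5.01 RPKM) in Shaziling, a ratio of 3.35 (2.49 to 4.55). It kept a ratio above 2 under each of the 4 other scalings. XIRP1, an actin-binding protein of the myotendinous region, had 48 and 267 reads and a ratio of 6.67 on a fragment of 470 bp. The ratio of DES was 2.49, that of MYLPF 5.75 on a fragment of 295 bp, and that of the thin-filament protein LMOD2 1.89.

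Among 28 partners and inhibitors of the myogenic regulators, 9 had a unigene, of which 4 were called higher in Shaziling and 0 higher in Yorkshire, with a median log2 ratio of 0.71, near that of the unigenes with a symbol. The other scalings called 1 to 3 higher in Shaziling and 0 to 2 higher in Yorkshire, and the muscle markers at 0 called 0 and 4. ID1, which sequesters the E-protein partners of the bHLH factors, had 61 reads (1.82 RPKM) in Yorkshire and 150 (5.37 RPKM) in Shaziling, a ratio of 2.95 (2.18 to 4.04). HEY1, a Notch target that represses differentiation, had 12 and 48 reads and a ratio of 4.80 (2.51 to 9.92). MDFIC, related to the MyoD family inhibitor, had a ratio of 2.20 and lost its call under each of the 4 other scalings. The coactivator EP300 (13.2 and 8.87 RPKM, ratio 0.673) and the repressor SNAI2 (5.48 and 4.04 RPKM, ratio 0.736) had lower RPKM in Shaziling without being called, and the arginine methyltransferase PRMT5 had a ratio of 1.63.

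Upstream of the factors, 4 of 26 genes had a unigene and 1 was called, MEOX1, a homeobox gene of the early somite, with 16 and 48 reads and a ratio of 3.60 (2.01 to 6.79). SRF, a transcription factor of muscle promoters, had a ratio of 1.43 and KLF5, with 4 and 9 reads, 2.70 (0.753 to 12.0). Neither was called, nor was MYOCD, named after its values were seen, with 6 and 4 reads and a ratio of 0.800 (0.166 to 3.37). The median log2 ratio of the list was 0.97, which lies between the values of SRF and KLF5 and so rests partly on few reads. For the regulators of MEF2, 7 of 27 genes had a unigene and 2 were called higher in Shaziling, with a median log2 ratio of 0.58. These were PPP3CA, a catalytic subunit of calcineurin (14.5 and 32.7 RPKM, ratio 2.26), and the coactivator MAML1 (ratio 2.12). With the other scalings 0 genes of this list were called higher in Shaziling and 0 to 2 higher in Yorkshire. PPP3CB, the other calcineurin subunit found, had a ratio of 1.75, and the muscle cofactor VGLL2 had 26.8 and 17.6 RPKM and thus a ratio of 0.658 (0.587 to 0.737).

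In the myostatin and activin pathway, 7 of 30 genes had a unigene, of which 3 were called higher in Shaziling, 0 higher in Yorkshire and 4 not called. The median log2 ratio was 0.999, the value of TLL2, a protease with 0 and 5 reads that was not called. That value takes 3 reads as the floor for Yorkshire and leaves out the counting error of the 5 reads, so it is not a confidence bound. The other scalings called 2 or 3 higher in Shaziling and 0 or 1 higher in Yorkshire, and the muscle markers at 0 called 2 of each. The receptors ACVR2A, ACVR2B, ACVR1B and TGFBR1, the mediators SMAD2, SMAD3 and SMAD7, and the inhibitors FST, FSTL3 and WFIKKN1 had no unigene under a pig RefSeq accession. WFIKKN2, a secreted protein that binds myostatin and blocks it, had 104 reads (0.993 RPKM) in Yorkshire and 467 (5.35 RPKM) in Shaziling, a ratio of 5.39 (4.35 to 6.73), and was called under each of the 4 other scalings. LTBP3, which binds latent growth factors of the TGF-beta family, had a ratio of 2.89 and was called in 3 of the 4. INHBB, an activin subunit, had 2 reads against 26, a ratio of 15.6 (3.90 to 136). The plan was to use the floor of 3 reads for any library at 3 reads or fewer. It was used only at 0 Yorkshire reads, as for TLL2, so the ratio of INHBB rests on its 2 Yorkshire reads. SMAD4, the shared mediator of the pathway, had 14.8 and 14.4 RPKM and thus a ratio of 0.977 (0.909 to 1.05). TGFBR3 had a ratio of 1.93 and DCN, a matrix proteoglycan, 0.813.

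Of 21 markers of satellite cells and myoblasts, 9 had a unigene and 4 were called higher in Shaziling, with a median log2 ratio of 0.97. The 4 other scalings also called 4 higher in Shaziling each, and 1 or 2 higher in Yorkshire, whereas the muscle markers at 0 called 1 higher in Shaziling and 3 higher in Yorkshire. MYF5 is 1 of the 4 and HEY1 stands in 2 lists. CXCR4, a chemokine receptor of migrating precursors and also of leukocytes, had a ratio of 3.43. CHRDL2 had 0 and 16 reads. With 3 reads taken as the floor for Yorkshire, its ratio was 6.40 with the deposited totals and 3.89 to 5.01 with the 4 other scalings. These values leave out the counting error of the 16 reads and are not confidence bounds. VCAM1 and SDC4 had ratios of 1.96 and 1.88 and CD34 0.790, and none of these 3 was called. HEYL, a Notch target named after its values were seen, had 43 and 20 reads and a ratio of 0.558 (0.311 to 0.969), and was called higher in Yorkshire under each of the 4 other scalings. CALCR, the calcitonin receptor, had 23 and 14 reads and a ratio of 0.730 (0.347 to 1.48).

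**Figure D4:**
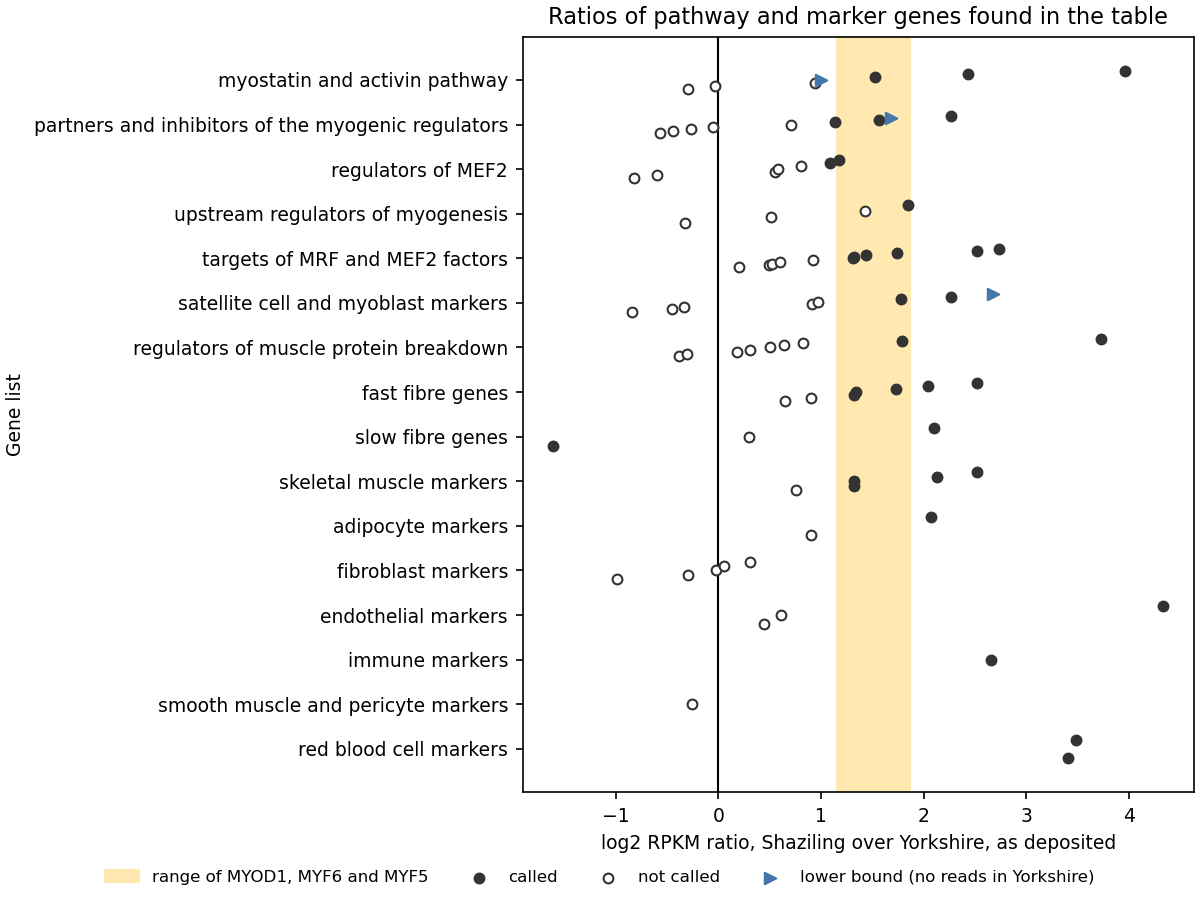
log2 RPKM ratio of Shaziling to Yorkshire as deposited (x axis) of each pathway or marker gene found in the table, by list (y axis). Filled points are called and open points are not. Triangles, named lower bounds in the legend, are genes without Yorkshire reads, set at a floor of 3 Yorkshire reads without counting error. The band is the range of the 3 factors (1.16 to 1.87); fibroblast markers lie below it, and both red blood cell markers lie above it.

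Markers of other cells moved with the comparison unevenly. The 5 fibroblast markers found of 8 had a summed RPKM of 737 in Yorkshire and 701 in Shaziling, and 0 of them were called. The 4 other scalings called 1 or 2 of them higher in Yorkshire, and the muscle markers at 0 called all 5. The share of all unigenes higher in Yorkshire was not computed for these scalings. LUM, a matrix proteoglycan named after its values were seen, had 91.0 and 45.9 RPKM (ratio 0.505) and was called higher in Yorkshire under each of the 4. Of 7 endothelial markers, 3 had a unigene: PECAM1 and KDR had ratios of 1.36 and 1.53 and VWF 20.2. The 2 red blood cell markers found of 6, HBB and ALAS2, were higher in Shaziling (ratios 11.2 and 10.6), with a summed RPKM of 18.9 against 212. The macrophage receptor CSF1R, 1 found of 8 immune markers, had a ratio of 6.29. RGS5 of pericytes, 1 found of 6 markers of smooth muscle and pericytes, had 0.834. Of 8 adipocyte markers, 2 had a unigene. FABP4 had a ratio of 1.86 and was not called. CIDEC, with 8 and 28 reads, had a ratio of 4.20 (1.86 to 10.7) and was also called in 3 of the 4 other scalings. The part of cell composition in the ratios of MYOD1, MYF5 and MYF6 was not tested.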

How the data were processed

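LM RNA of 25-day-old Shaziling and Yorkshire pigs (3 per breed, 1 column per breed) was sequenced by the authors as paired-end reads, assembled de novo with CLC Genomics Workbench and CAP3, and matched to nr with BlastX. The submitters' processing notes name CASAVA 1.8, TopHat2 2.0.6 and the mouse build mm10, which differs from the paper's account of an assembly without a genome; no coordinates were used. The deposited read counts are whole numbers per unigene without normalization. RPKM, deposited beside the counts, is the authors' Qualimap output. It was checked only for agreement across unigenes with the counts and lengths, since the library totals were worked back from these same values. Unigene lengths are as deposited, and the number after each accession, the same for all unigenes of a protein, was read as its length in residues. The number of unused columns of per-sample values was 0.

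Accessions were matched without their version to the pig RefSeq proteins of Sscrofa11.1, which named 5698 unigenes (4484 symbols); the 3 members also matched with version. The calls required at least a 2-fold difference and a Benjamini-Hochberg false discovery rate, over all unigenes, of 0.05. The p-values came from an exact binomial test (two-sided) of the reads given the library totals, tested on simulated data. Ratios have exact 95% intervals on the reads, and pairs of members exact conditional intervals of the odds ratio. The 4 other scalings were the same RPKM sum, a median log2 ratio of 0 over unigenes reaching 10 RPKM in each library, TMM (edgeR 4.0.16) and totals without the 2 mitochondrial unigenes contig_3 and contig_45. A scaling to the muscle markers was added after the data were seen. Named were all members and, per list, up to 3 genes with the highest mean RPKM, up to 3 called genes with the largest ratio and at least 1 RPKM in a library, and the core receptors, mediators and inhibitors of the myostatin pathway. A pair of list genes is not reported here and was left out of the counts. Members and lists were chosen with earlier results of these data known. The software was R 4.3.3 and Python 3.11.15 with scipy 1.17.1, matplotlib 3.10.9, pandas 2.3.3 and numpy 2.4.6.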

Additional observations from a re-analysis of the deposited data

How the results depend on the processing

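All 3 factors were called with a fold change of 1.5, a false discovery rate of 0.01, no test on the reads, a minimum RPKM of 1, a minimum length of 300 bp and versioned accessions, 2 with the median log2 ratio of 0, 1 with the same RPKM sum, TMM, totals without the mitochondrial unigenes or a fold change of 3, and 0 with the muscle markers at 0 (chosen after seeing the data). With the same RPKM sum, the median log2 ratio of 0, TMM, the totals without mitochondrial unigenes and the muscle markers at 0, in this order, the log2 ratio of MYOD1 was 0.73, 0.81, 0.72, 0.44 and -0.16, and that of MYF6, also the median of the 3, was 0.93, 1.004, 0.92, 0.64 and 0.033. MYF5 stayed within its counting interval with the first 3 and was 1.15 and 0.54 with the last 2. A pseudocount of 0.5 left each factor within its counting interval, and a pseudocount of 1 gave 1.03 for MYOD1 and for the median and 0.999 for MYF5. MYOD1 with the muscle markers at 0 was the only value to change sign. Since each gene had 1 unigene, the longest unigene and summed reads gave the same values. Of the 78 other list genes, 31 were called higher in Shaziling and 1 higher in Yorkshire, against 36.3% of unigenes with a symbol called higher in Shaziling, and 19 of the 31 were called under each of the 4 scalings of the processing section. The number higher in Shaziling was 23 or 24 with the first 3 scalings, 19 with totals without mitochondrial unigenes and 10 with the muscle markers at 0. The matching shares of all unigenes were 14.8%, 16.1%, 14.8%, 10.9% and 5.26%, in the order above. The number higher in Yorkshire was 5, 3, 5, 11 and 22 in the order above, so that with the muscle markers at 0 it exceeded the number higher in Shaziling. The share of all unigenes called higher in Yorkshire was computed with the deposited values only (7.08%). These counts therefore have no background share and are not read as a result about the list genes. No paired analysis was possible because each breed has 1 library. The depth limits MYF5 most, whose interval spans 2.66-fold against 1.14-fold for MYOD1.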

Other observations

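Among the genes of muscle protein breakdown and synthesis, 9 of 17 had a unigene and 2 were called higher in Shaziling, 0 higher in Yorkshire, with a median log2 ratio of 0.51; the 4 other scalings called 0 to 2 higher in Yorkshire, and the muscle markers at 0 called 3. Of the unigenes with a symbol, 36.3% were called higher in Shaziling with the deposited values. The share of all unigenes higher in Yorkshire was not computed with the other scalings. KLF15, a glucocorticoid-induced transcription factor, had 16 reads (0.397 RPKM) in Yorkshire and 177 (5.26 RPKM) in Shaziling, with a ratio of 13.3 (7.95 to 23.7). EIF4EBP1, an inhibitor of cap-dependent translation, had a ratio of 3.45 (3.19 to 3.74), and both genes were called under each of the 4 other scalings. The ubiquitin ligases of atrophy had ratios of 1.77 (TRIM63) and 0.767 (FBXO32) and were not called.

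Fast fibre genes were called higher in Shaziling for 5 of the 7 found of 13, with a median log2 ratio of 1.34. Of the unigenes with a symbol, 36.3% were called higher in Shaziling, and those with reads in both libraries had a median of 0.70. The 4 other scalings called 3 fast fibre genes each, beside 10.9% to 16.1% of all unigenes, and the muscle markers at 0 called 1. That last count is partly built in, because ATP2A1, which sets the scaling, and MYLPF stand in both lists. The highest level among the fast fibre genes was that of MYH4 (2748 RPKM in Yorkshire, 6978 in Shaziling, ratio 2.54). MYH4 is so similar in sequence to MYH1 (ratio 1.57) that the division of reads between them is uncertain. Parvalbumin (PVALB) had a ratio of 4.13 and MYBPC2 3.31. Of 3 slow fibre genes found of 11, the slow light chain MYL3 was called higher in Shaziling (ratio 4.29), ATP2A2 was not called (1.23), and MYOZ2, a calcineurin-binding Z-disc protein, was called higher in Yorkshire, with 413 RPKM against 135 and 3.05 times the level.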
